A study of Homo sapiens with 12 samples.

Results

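Interferon-stimulated genes are switched on when a cell senses interferon, and 10 of them were followed here on the expression arrays of 2 DLBCL (diffuse large B-cell lymphoma) cell lines. The genes ISG15, IFIT1, IFIT2, IFIT3, MX1, OAS1, IRF7, IFI6, IFI44 and IFITM1 were chosen by name, and every probe annotated to one of these symbols was taken. That gave 19 of the 47230 probes and 10 of the 20046 genes with a symbol. The study asked how low oxygen alters gene expression in lymphoma cells. HLY (HLY-1) cells at 1% oxygen (hypoxia), HLY cells at 21% oxygen (normoxia), SUDHL2 (SUDHL-2, also written L2) cells at 1% oxygen and SUDHL2 cells at 21% oxygen were each measured on 3 Illumina HumanHT-12 v4 arrays. All cells grew in RPMI-1640 with 10% FBS, antibiotics and 5% CO2, and the series describes the 3 arrays of a group as biological replicates. Each line is a single cultured line, and how long the cells of these arrays stayed at low oxygen is not given in the sources used here.

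Type I interferons bind the IFNAR1 and IFNAR2 receptor, whose kinases JAK1 and TYK2 activate STAT proteins. With IRF9 these form a complex that binds the interferon-stimulated response element (ISRE) in the promoters of its target genes. The products include a ubiquitin-like modifier (ISG15), RNA-binding proteins that block viral translation (the IFIT family), a GTPase that traps viral particles (MX1), an enzyme that senses double-stranded RNA (OAS1), a membrane protein that hinders viral entry (IFITM1) and a mitochondrial protein that opposes apoptosis (IFI6). IRF7 is a transcription factor that amplifies interferon production. In activated B-cell-like DLBCL, signalling through MYD88 is known to feed an interferon loop of this kind.

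The promoters are shown because these genes are defined by the response element. RefSeq promoter windows (GRCh38.p14, 250 bases before to 50 bases after each annotated start) matched 8 of the 10 genes with 12 entries, and IFIT2 and IRF7 had no entry. The ISRE core was searched on both strands as the letters GAAA, any 2 bases, and GAAA again. It was present in 10 of these 12 windows, belonging to 7 of the 8 genes, against 3.57% of all 35116 windows of the same length. The 2 IFI44 windows overlap and hold the same match, which is counted in both. Because the genes were chosen as interferon-stimulated, this share describes them and is no test. The windows below belong to the genes with the widest differences on the arrays (ISG15, MX1 and IFI6) and to IFIT1, which was not detected, and their capitals mark ISRE core matches on either strand.
ISG15, chr1:1013247-1013546, plus strand: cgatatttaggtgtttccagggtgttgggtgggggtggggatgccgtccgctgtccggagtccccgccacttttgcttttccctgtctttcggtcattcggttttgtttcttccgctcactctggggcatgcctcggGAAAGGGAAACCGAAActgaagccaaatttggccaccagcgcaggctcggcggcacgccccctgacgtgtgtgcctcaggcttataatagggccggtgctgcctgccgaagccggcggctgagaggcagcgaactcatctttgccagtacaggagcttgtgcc
MX1, first of 3 entries, chr21:41420308-41420607, plus strand: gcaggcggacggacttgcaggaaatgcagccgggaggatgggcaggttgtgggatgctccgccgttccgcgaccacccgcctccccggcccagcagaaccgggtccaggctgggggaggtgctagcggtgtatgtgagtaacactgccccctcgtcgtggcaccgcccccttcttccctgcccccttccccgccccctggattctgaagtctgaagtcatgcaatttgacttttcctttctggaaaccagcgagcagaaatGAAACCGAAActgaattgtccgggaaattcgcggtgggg
IFI6, chr1:27672143-27672442, minus strand: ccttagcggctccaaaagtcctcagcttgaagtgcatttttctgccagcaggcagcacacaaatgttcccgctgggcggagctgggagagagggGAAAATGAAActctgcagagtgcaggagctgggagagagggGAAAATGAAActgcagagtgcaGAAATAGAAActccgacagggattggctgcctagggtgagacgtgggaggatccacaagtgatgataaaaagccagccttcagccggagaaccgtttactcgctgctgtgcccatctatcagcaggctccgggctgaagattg
IFIT1, chr10:89392373-89392672, plus strand: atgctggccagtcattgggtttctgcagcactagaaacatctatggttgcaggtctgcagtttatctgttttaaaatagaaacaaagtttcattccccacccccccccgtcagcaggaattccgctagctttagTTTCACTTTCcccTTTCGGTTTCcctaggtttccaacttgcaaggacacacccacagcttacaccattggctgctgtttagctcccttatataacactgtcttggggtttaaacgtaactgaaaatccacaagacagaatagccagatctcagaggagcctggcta

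The ISG15 window held 2 overlapping matches, which began 113 and 107 bases before the start. IFI6 had 3 matches, at 156, 115 and 93 bases before the start, and IFIT1 had 2, at 116 and 103 bases. In the MX1 window shown, the match began 11 bases after the start. Another MX1 window held a match 196 bases before its start, and the remaining one held none. IFIT3, IFI44 and IFITM1 also held the core, whereas the OAS1 window did not by these letters. The search asked for exactly 2 bases between the GAAA repeats. The OAS1 window and the MX1 window without a match each held GAAACGAAA, on 1 or the other strand. In these letters the repeats stand 1 base apart, so they were not counted. The letters TTCNNNGAA, a site that STAT dimers can bind, stood in 7.66% of all windows and in 1 window each of MX1, OAS1 and IFITM1. In MX1 and IFITM1 they overlapped an ISRE core. ISG15 and IFI6, whose array values moved in opposite directions, thus both carried the core, and a match of letters is not evidence that a factor was bound.

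The arrays did not group by line label, and this bears on every value that follows. HLY hypoxia correlated with SUDHL2 normoxia at a median of 0.984 and with HLY normoxia at 0.755, taken over genes, which are no replicates of one another. SUDHL2 hypoxia correlated with HLY normoxia at 0.976 and with SUDHL2 normoxia at 0.754. B-cell markers split in the same way. Of 9 B-cell markers with a probe, 1 was detected on any HLY hypoxia array and 8 on HLY normoxia arrays, while 8 were detected on SUDHL2 hypoxia arrays and 2 on SUDHL2 normoxia arrays. Their summed normalized intensity was 267 to 312 in HLY hypoxia and 8684 to 9855 in HLY normoxia, and 6923 to 9244 in SUDHL2 hypoxia and 280 to 529 in SUDHL2 normoxia. PAX5 was not detected in any group. In each group at most 1 of 9 T and NK cell markers, 3 of 8 monocyte markers, 1 of 5 plasmacytoid dendritic cell markers and 1 of 8 stromal or epithelial markers was detected. The stromal or epithelial marker that was detected changed with the kind of array. EPCAM, which joins epithelial cells, was in hypoxia at least 22.5-fold lower under the HLY label and at least 15.4-fold higher under the SUDHL2 label. PECAM1, which joins endothelial cells, was in hypoxia at least 6.48-fold higher under the HLY label and at least 7.23-fold lower under the SUDHL2 label. The summed intensity of these 8 markers was 549 to 591 in HLY hypoxia and 1300 to 1422 in HLY normoxia, and 987 to 1200 in SUDHL2 hypoxia and 636 to 660 in SUDHL2 normoxia. These marker differences move with the values of ISG15, MX1 and IFI6 given below, and their part in them was not tested. The arrays thus went against their line labels. Whether the line labels of 1 oxygen level were exchanged was not tested, and these arrays do not settle it. With such an exchange, a value given here under the HLY or the SUDHL2 label would set apart both the lines and the oxygen levels, and the comparison across the labels would be the one within a line. Within a labelled line, a response to oxygen and the difference between these 2 kinds of array cannot be told apart, so each result is given as labelled, across the labels between like arrays, and as the average of both labelled responses. In these bulk samples, fewer expressing cells and less RNA per cell cannot be told apart either. The number of arrays limits the precision of every value.

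Of the 10 genes, 6 were measured and 4 were not. A probe counted as detected on an array when its detection p-value, which sets it against the negative control probes, was under 0.01. IFIT1 (2 probes), IFIT2 (1 probe), IFIT3 (3 probes) and IFI44 (1 probe) were detected on 0 of 12 arrays. Their deposited intensities lay between 90 and 167, and the lowest detection p-value among these 7 probes was 0.0468, for IFI44, a cytoplasmic protein induced by interferon. On the normalized log2 scale they lay between 4.43 and 5.30, below the lowest detected probe of every array (5.67 to 6.30). Of all probes, 59.5% were likewise detected on no array. When the detection requirement was dropped, none of the 4 genes passed the test in any comparison, and IFI44 in HLY came to a log2 difference of 0.39 with an adjusted p of 0.105. A low level of these transcripts was therefore not detectable on these arrays, which is not the same as absent.

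**Figure D1:**
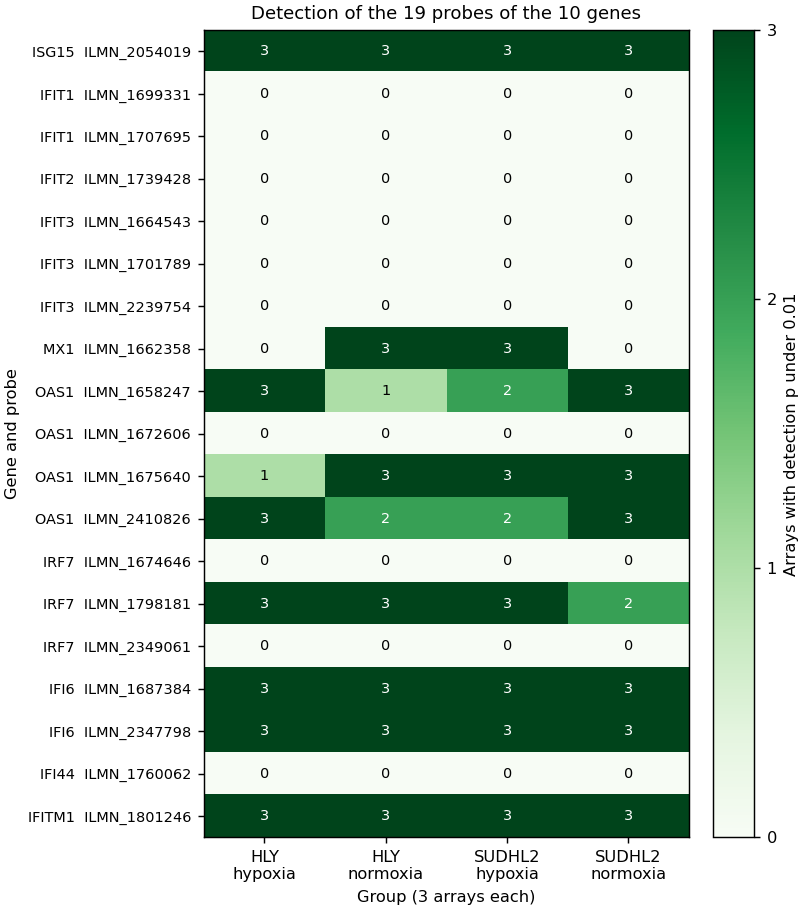
Number of arrays (of 3 in each group on the horizontal axis) on which each of the 19 probes (vertical axis) had a detection p-value under 0.01. All probes of IFIT1, IFIT2, IFIT3 and IFI44 read 0 in every group, and MX1 reads 0 in HLY hypoxia, 3 in HLY normoxia, 3 in SUDHL2 hypoxia and 0 in SUDHL2 normoxia.

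ISG15, the ubiquitin-like modifier that is attached to other proteins during the interferon response, was lower in hypoxia under the HLY label and higher in hypoxia under the SUDHL2 label. Its normalized log2 intensity was 7.84, 7.25 and 7.40 on the HLY hypoxia arrays and 9.37, 9.56 and 9.73 on the HLY normoxia arrays. In SUDHL2 it was 9.44, 9.83 and 9.53 in hypoxia and 7.61, 7.37 and 7.84 in normoxia. Hypoxia and normoxia arrays did not overlap in either line, and the 2 high groups were HLY normoxia and SUDHL2 hypoxia. The deposited intensities, before any correction, ran from 275 to 386 in HLY hypoxia and from 694 to 850 in HLY normoxia, and from 545 to 1081 in SUDHL2 hypoxia and from 267 to 328 in SUDHL2 normoxia. In HLY the level in hypoxia was 0.241 times that in normoxia (95% confidence interval 0.184 to 0.315, log2 difference -2.05, standard error 0.18, adjusted p = 1.62e-07 from limma). In SUDHL2 it was 3.99 times that in normoxia (95% confidence interval 3.05 to 5.21, log2 difference 1.99, standard error 0.18, adjusted p = 2.19e-07). Both differences stood out against the spread between replicates, whose SD was 0.18 to 0.31 in the 4 groups.

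MX1, the GTPase that traps viral particles, was detected only in HLY normoxia and SUDHL2 hypoxia among the 4 groups. It read 4.63, 4.43 and 4.79 in HLY hypoxia, where no array detected it, and 6.76, 6.38 and 6.56 in HLY normoxia, where all 3 did. It read 7.05, 6.82 and 6.41 in SUDHL2 hypoxia, with all 3 arrays detected, and 4.44, 4.75 and 4.56 in SUDHL2 normoxia, with none. Because a group below background gives no level, the fold is a bound, set by the mean of the brighter group over the lowest signal that was detected on the arrays of the dimmer one. MX1 was at least 1.79-fold lower in hypoxia than in normoxia under the HLY label (adjusted p = 1.73e-07 from limma) and at least 1.91-fold higher in hypoxia than in normoxia under the SUDHL2 label (adjusted p = 5.17e-08). MX1 passed the detection filter through its 2 bright groups alone and so had to differ between groups, which makes these p-values a description of the fit and no support. The direction of MX1 in each labelled line was that of ISG15.

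IFI6, the mitochondrial protein that opposes apoptosis, ran the other way on its brightest probe. That probe, ILMN_1687384, read 9.12, 8.83 and 9.34 in HLY hypoxia and 6.95, 6.46 and 6.32 in HLY normoxia. It read 6.93, 7.42 and 7.32 in SUDHL2 hypoxia and 8.90, 8.57 and 9.18 in SUDHL2 normoxia. The arrays of hypoxia and normoxia did not overlap in either line, with HLY hypoxia and SUDHL2 normoxia high. The level in hypoxia was 5.74 times that in normoxia in HLY (95% confidence interval 4.22 to 7.81, log2 difference 2.52, standard error 0.21, adjusted p = 7.66e-08 from limma). In SUDHL2 it was 0.317 times that in normoxia (95% confidence interval 0.233 to 0.430, log2 difference -1.66, standard error 0.21, adjusted p = 6.44e-06). The other IFI6 probe did not show this. ILMN_2347798 was detected on all 12 arrays, and its log2 difference was -0.28 in HLY (adjusted p = 0.274 in a fit of every kept probe) and 0.00 in SUDHL2 (adjusted p = 0.998). The direction of IFI6 therefore rests on 1 of its 2 probes, and which transcripts each probe reads was not analysed here. With the mean of both probes the calls in the 2 lines held, at log2 differences of 1.12 in HLY (adjusted p = 0.000181) and -0.83 in SUDHL2 (adjusted p = 0.00191). That mean contains the brightest probe and takes its shift from it, so it is no support beyond that 1 probe.

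**Figure D2:**
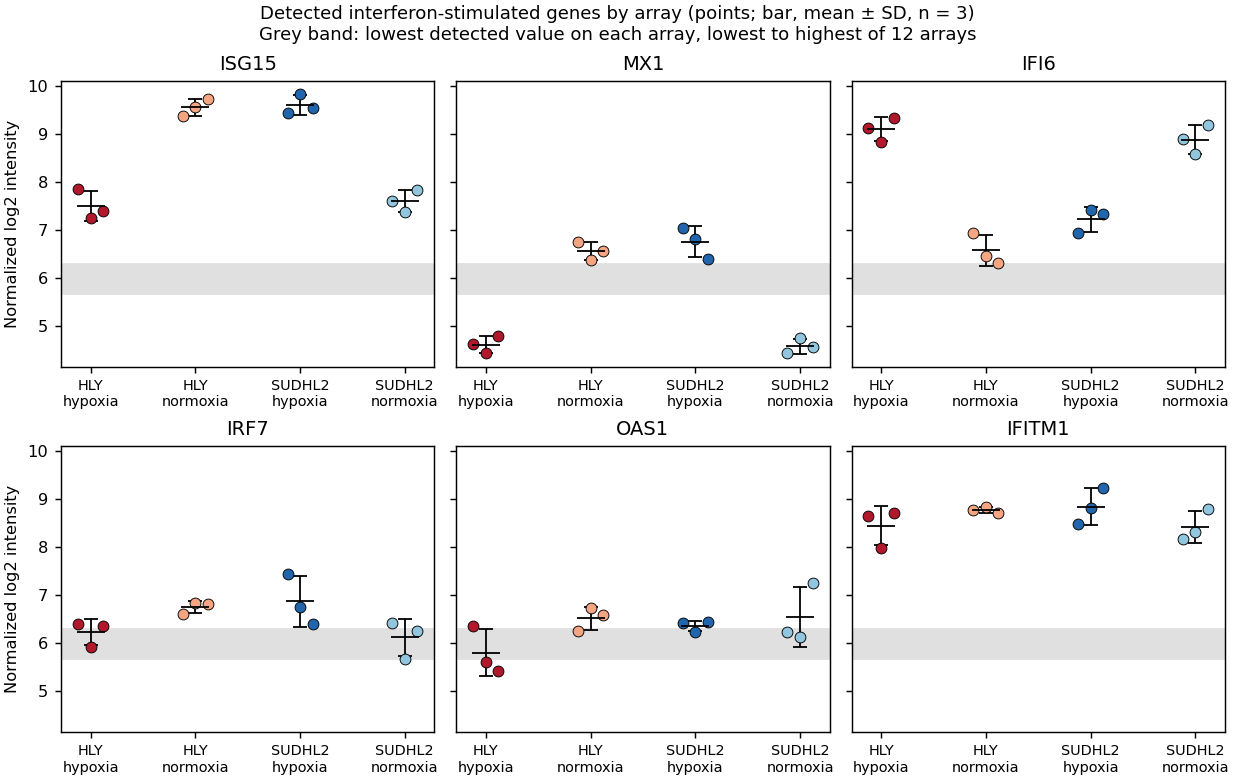
Normalized log2 intensity (vertical axis) of the 6 detected genes on each array, with 3 points a group in the 4 groups, the mean and SD as bars, and a grey band from 5.67 to 6.30 for the lowest detected values of the 12 arrays. ISG15 and MX1 are high in HLY normoxia and SUDHL2 hypoxia, IFI6 (brightest probe) is high in HLY hypoxia and SUDHL2 normoxia, and the group means of IFITM1 lie within 0.42 of one another.

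IRF7, the factor that amplifies interferon production, was dimmer and changed less. It read 6.41, 5.92 and 6.36 in HLY hypoxia and 6.61, 6.84 and 6.81 in HLY normoxia, which did not overlap. It read 7.44, 6.76 and 6.41 in SUDHL2 hypoxia and 6.43, 5.68 and 6.26 in SUDHL2 normoxia, which did overlap. It was detected on 2 of the 3 SUDHL2 normoxia arrays and on all other arrays. The log2 difference was -0.52 in HLY (standard error 0.25, adjusted p = 0.0768) and 0.75 in SUDHL2 (standard error 0.25, adjusted p = 0.0153). The SUDHL2 call was lost without SUDHL2 hypoxia replicate 1 (log2 difference 0.46, adjusted p = 0.0761) and without SUDHL2 normoxia replicate 2 (0.53, adjusted p = 0.084), while the HLY difference passed without SUDHL2 hypoxia replicate 1 (adjusted p = 0.0295) or replicate 3 (adjusted p = 0.048), which share its estimate of spread. The other 2 IRF7 probes were detected on no array.

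OAS1, which makes the signal that activates RNase L, gave probes that disagreed. Its brightest probe, ILMN_1675640, read 6.37, 5.62 and 5.43 in HLY hypoxia, where 1 array detected it, and 6.26, 6.73 and 6.58 in HLY normoxia. It read 6.42, 6.23 and 6.43 in SUDHL2 hypoxia and 6.24, 6.13 and 7.26 in SUDHL2 normoxia. The groups overlapped in both lines. The log2 difference was -0.71 in HLY (standard error 0.28, adjusted p = 0.0374) and -0.18 in SUDHL2 (standard error 0.28, adjusted p = 0.578). ILMN_1658247 went the other way in HLY, with a log2 difference of 0.75 (adjusted p = 0.0109 in the fit of every kept probe), and ILMN_2410826 gave -0.22 (adjusted p = 0.375). The mean of the 3 kept OAS1 probes differed by -0.06 in HLY (adjusted p = 0.771). The HLY call of OAS1 was lost without either of HLY hypoxia replicates 2 (adjusted p = 0.111) and 3 (0.153) or of HLY normoxia replicates 2 (0.117) and 3 (0.0859), so OAS1 has no settled direction here.

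**Figure D3:**
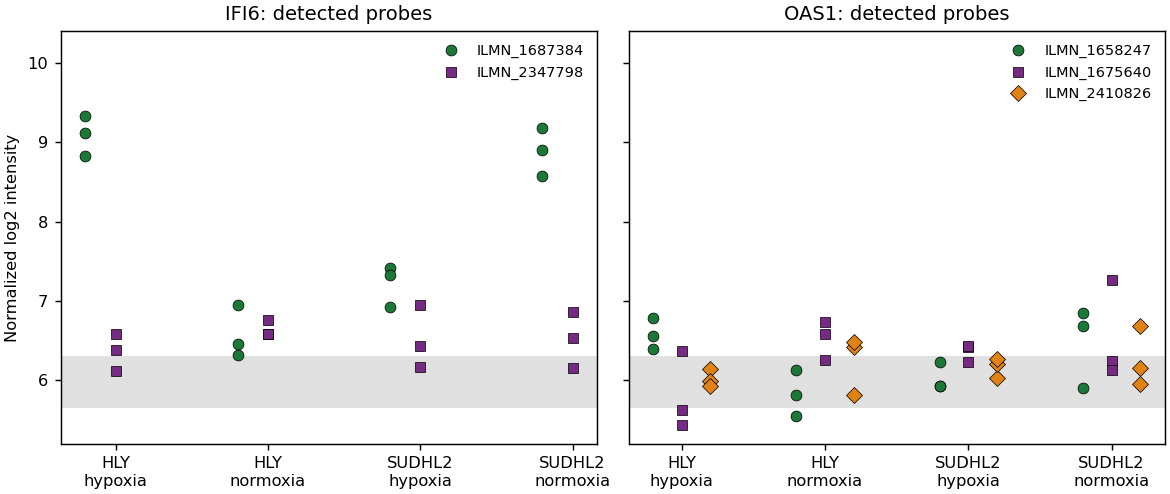
Normalized log2 intensity (vertical axis) of each detected probe of IFI6 and OAS1 on the 3 arrays of each group, with the grey band from 5.67 to 6.30 as the lowest detected values. Only ILMN_1687384 of the 2 IFI6 probes separates the groups, and the OAS1 probes ILMN_1675640 and ILMN_1658247 shift in opposite directions in HLY.

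IFITM1, the membrane protein that hinders viral entry, had the narrowest range of the 6. It read 8.65, 7.98 and 8.71 in HLY hypoxia and 8.76, 8.83 and 8.72 in HLY normoxia. It read 8.48, 8.81 and 9.23 in SUDHL2 hypoxia and 8.17, 8.31 and 8.80 in SUDHL2 normoxia. The log2 difference was -0.32 in HLY (95% confidence interval -0.81 to 0.16, adjusted p = 0.224) and 0.42 in SUDHL2 (95% confidence interval -0.07 to 0.90, adjusted p = 0.118). The HLY arrays did not overlap, by a narrow margin, and the SUDHL2 arrays did. Neither difference passed the test, although that in SUDHL2 did without SUDHL2 hypoxia replicate 1 (adjusted p = 0.0356) or SUDHL2 normoxia replicate 3 (adjusted p = 0.039). Intervals this wide do not show equal levels.

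Taking the 6 genes together, 1 was called higher (IFI6) and 3 lower (ISG15, MX1 and OAS1) in hypoxia under the HLY label, where 65.5% of all 9621 tested genes were called, 33.1% higher and 32.4% lower. Under the SUDHL2 label 3 were called higher (ISG15, MX1 and IRF7) and 1 lower (IFI6), where 66.2% of all genes were called, 33.3% higher and 33% lower. A share of 4 of 6 is near the background in both lines, and the calls of MX1 in it are no support. The median log2 difference of the 6 genes was -0.62 in HLY and 0.58 in SUDHL2, against -0.01 and 0.02 over all genes tested. The 2 middle values behind each median were OAS1 and IRF7 in HLY, and IFITM1 and IRF7 in SUDHL2. None of these differences was both called and kept under all alternatives, so the medians do not establish a shift of the set. The SUDHL2 response minus the HLY response was called in 5 of the 6 genes, 4 higher and 1 lower, where 73.8% of all genes were called, 37.1% higher and 36.6% lower. It was 4.05 for ISG15 (adjusted p = 2.35e-09), 4.12 for MX1 (1.11e-09, fitted through groups below background), -4.18 for IFI6 (7.82e-09), 1.27 for IRF7 (0.00441) and 0.74 for IFITM1 (0.0494). For OAS1 it was 0.53 (adjusted p = 0.242). Of these, the IFITM1 call was lost when any 1 of 8 arrays was left out (HLY hypoxia replicate 2, HLY normoxia replicates 1 to 3, SUDHL2 hypoxia replicates 2 and 3, and SUDHL2 normoxia replicates 1 and 2), with adjusted p between 0.067 and 0.134.

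Between arrays that resemble each other, the differences of ISG15, MX1 and IFI6 were much smaller than under the labels. For HLY hypoxia against SUDHL2 normoxia none of the 6 genes was called by limma, where 2.4% of all genes were (1.17% higher and 1.23% lower), and only OAS1 had an unadjusted p under 0.05 (log2 difference -0.74, adjusted p = 0.217). ISG15 differed by -0.11 (95% confidence interval -0.49 to 0.28) and IFI6 by 0.21 (-0.23 to 0.66), while MX1 was below background in both groups. For SUDHL2 hypoxia against HLY normoxia 1 of the 6 was called, where 15.9% of all genes were called, 5.75% higher and 10.1% lower. This was IFI6 on its brightest probe, with a log2 difference of 0.65 (standard error 0.21, adjusted p = 0.0479). The IFI6 arrays of these 2 groups overlapped, and the call was lost under 16 of 23 alternatives, among them leaving out HLY normoxia replicate 2 (adjusted p = 0.144) or 3 (0.171), or SUDHL2 hypoxia replicate 2 (0.153) or 3 (0.127), and, through the shared spread, HLY hypoxia replicate 1 (0.0624) or 3 (0.0526) or SUDHL2 normoxia replicate 1 (0.0611). ISG15 differed by 0.05 (95% confidence interval -0.34 to 0.43) and MX1, measured in both, by 0.19 (-0.18 to 0.56).

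The average of both labelled responses, which does not depend on which line a label names, called none of the 6 genes with limma, where 9.54% of all genes were called, 3.9% higher and 5.64% lower. IFI6 and OAS1 had an unadjusted p under 0.05. On its brightest probe, IFI6 averaged 0.43 higher (95% confidence interval 0.12 to 0.74, adjusted p = 0.0793), and it passed without HLY normoxia replicate 1 (adjusted p = 0.0463) or SUDHL2 hypoxia replicate 1 (0.0371). The average log2 difference of OAS1 was -0.45 (95% confidence interval -0.88 to -0.02, adjusted p = 0.175). For ISG15 the average was -0.03 (95% confidence interval -0.30 to 0.24), for IRF7 0.11 (-0.26 to 0.49) and for IFITM1 0.05 (-0.30 to 0.39). Targets of hypoxia-inducible factors were set beside these genes. Of 9 tested, 7 were higher and 1 lower in hypoxia under the HLY label, where 33.1% of all genes were called higher and 32.4% lower. Under the SUDHL2 label 4 were higher and 2 lower, where 33.3% of all genes were called higher and 33% lower. That SUDHL2 count is near the background. On average 8 were higher and none lower. The 1 lower under the HLY label was ADM, which was below background in HLY hypoxia and SUDHL2 normoxia, so its calls describe the fit and are no support. The 2 that were lower under the SUDHL2 label were P4HA1 (log2 difference 2.31 in HLY and -1.01 in SUDHL2) and NDRG1. No HLY normoxia array detected NDRG1, which was at least 32.4-fold higher in HLY hypoxia. Under the SUDHL2 label its fitted log2 difference was -5.12, with 1 of 3 hypoxia arrays detecting it. NDRG1 could pass the detection filter through its brighter groups alone, so its calls under the labels are no support. The same holds for the HLY calls of PDK1 and VEGFA, which are also among the 7. PDK1 was detected on 0 of 3 HLY normoxia arrays and VEGFA on 1 of 3. The labelled and the average comparisons share all arrays and are not independent.

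**Figure D4:**
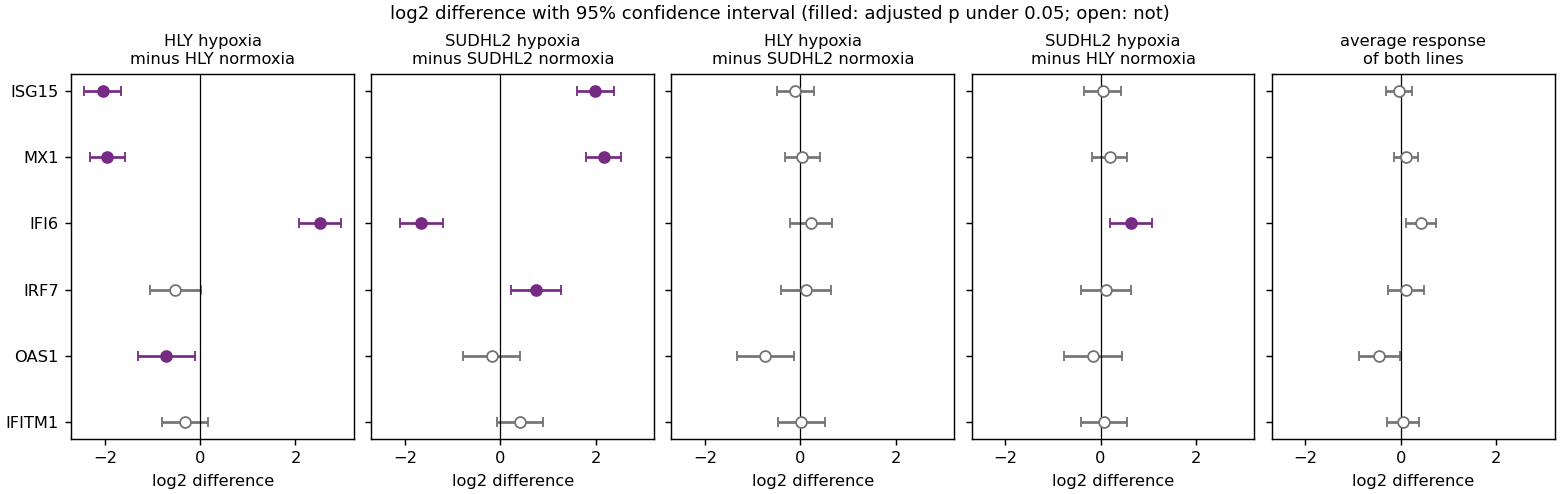
log2 difference (horizontal axis) with its 95% confidence interval for the 6 detected genes (vertical axis, IFI6 by its brightest probe) in 5 comparisons, filled where the adjusted p was under 0.05. ISG15, MX1 and IFI6 stand about 2 away from 0 in opposite directions under the 2 line labels, from 1.66 to 2.52 in size, and within 0.65 of 0 between like arrays and on average, where MX1 was fitted through groups below background in every panel but SUDHL2 hypoxia minus HLY normoxia.

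Ordered by level, ISG15 was highest in SUDHL2 hypoxia (mean 9.60) and HLY normoxia (9.55), followed by SUDHL2 normoxia (7.61) and HLY hypoxia (7.50). Neighbours within each pair did not differ beyond their spread (adjusted p = 0.884 and 0.839), and the step between the pairs, HLY minus SUDHL2 in normoxia, was 1.95 (adjusted p = 3.00e-07). MX1 had the same order of its detected groups, SUDHL2 hypoxia (6.76) and HLY normoxia (6.57), which did not differ beyond their spread (adjusted p = 0.49). On its brightest probe, IFI6 was ordered HLY hypoxia (9.10), SUDHL2 normoxia (8.88), SUDHL2 hypoxia (7.22) and HLY normoxia (6.57). The first pair did not differ beyond its spread (adjusted p = 0.684 from limma). In the same order of groups, the means of the other IFI6 probe were 6.36, 6.51, 6.51 and 6.64. Between the lines at the same oxygen, HLY minus SUDHL2, 3 genes were called higher (ISG15, MX1 and IRF7) and 1 lower (IFI6) in normoxia, where 64.5% of all genes were called, 32.7% higher and 31.8% lower. In hypoxia 1 was called higher (IFI6) and 3 lower (ISG15, MX1 and IRF7), where 66.6% were called, 33.4% higher and 33.1% lower. The calls of MX1 in these counts are no support, and those of IFI6 are from its brightest probe alone. IRF7 differed by 0.63 in normoxia (adjusted p = 0.0361) and by -0.64 in hypoxia (adjusted p = 0.0335), and each of these calls was lost under 7 of 22 alternatives. Among these were leaving out HLY normoxia replicate 2 (adjusted p = 0.0925) or 3 (0.0852) or SUDHL2 normoxia replicate 2 (0.175) in normoxia, and HLY hypoxia replicate 2 (0.135) or SUDHL2 hypoxia replicate 1 (0.168) in hypoxia.

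The genes whose values ran closest to these 3 over the 12 arrays were sought by the root mean square difference of gene-centred log2 values. Nearest to ISG15 were AFMID, a formamidase of tryptophan breakdown (0.133), and DPP7, a lysosomal dipeptidyl peptidase (0.137). Nearest to MX1 were the noncoding DOCK8-AS1 (0.134) and SLC16A5, a monocarboxylate transporter family member (0.14). Nearest to the brightest IFI6 probe were C12orf57 (0.19) and RPL28, a protein of the large ribosomal subunit (0.215). All points share the same 12 arrays, and this is a description of likeness only.

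Upstream of these genes, no interferon was detected. All 21 interferon ligand genes with a probe (IFNA genes, IFNB1, IFNE, IFNK, IFNW1, IFNG and IFNL1 to IFNL3) were at 0 of 12 arrays. Of 12 listed receptor and JAK-STAT genes 10 had a probe here and 9 were tested, with 2 higher and 3 lower in hypoxia under the HLY label, where 65.5% of all genes were called, and 3 higher and 3 lower under the SUDHL2 label, where 66.2% were. Both counts are near these shares. A pathway gene given with an at-least fold was below background in 1 of the groups compared and could pass the detection filter through its brighter groups alone, so its call and its p-value describe the fit and are no support. The same holds where only 1 of 3 arrays detected a gene in a compared group. IFNAR1, a chain of the type I receptor, differed by -0.12 in HLY (adjusted p = 0.484) and 0.08 in SUDHL2 (adjusted p = 0.642). Its partner IFNAR2 rose in HLY by 1.17 (adjusted p = 7.65e-06) and, in SUDHL2, fell by 0.90 (adjusted p = 9.44e-05). IRF9, the DNA-binding part of the complex that reads the ISRE, rose in HLY by 1.07 (adjusted p = 2.76e-06) and, in SUDHL2, fell by 0.66 (adjusted p = 2.65e-04). IRF9 and IFNAR2 thus had the direction of the brightest IFI6 probe and the opposite of ISG15. In HLY 33.1% of all genes were called higher and 32.4% lower, so a shared direction does not single out a gene. Pathway genes with several probes, such as IFNAR2 with 3, are given by their brightest kept probe alone.

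The kinase JAK1 fell by 1.21 in HLY (adjusted p = 2.64e-05) and rose by 1.24 in SUDHL2 (adjusted p = 1.96e-05). IFNGR2, a chain of the interferon gamma receptor, fell by 1.22 in HLY (adjusted p = 1.20e-06) and rose by 1.17 in SUDHL2 (adjusted p = 1.81e-06). IFNLR1, the receptor for interferon lambda, was at least 5.52-fold lower in HLY (adjusted p = 3.16e-12) and at least 5.86-fold higher in SUDHL2 (adjusted p = 2.85e-12), being below background in HLY hypoxia and SUDHL2 normoxia. The direction of JAK1 and IFNGR2 was that of ISG15. TYK2 differed by -0.20 in HLY and 0.22 in SUDHL2, and IL10RB, a chain shared with the interleukin 10 receptor, by 0.02 and -0.30, none of them past the test. IFNGR1, the ligand-binding chain for interferon gamma, had a difference of -0.26 in HLY (adjusted p = 0.142), while in SUDHL2 it fell by 0.37 (adjusted p = 0.0426). On average over both lines none of the 9 passed, and JAK2 was too rarely detected to be tested.

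Of 6 further interferon regulatory factors tested, 3 were higher and 2 lower in hypoxia in HLY, where 33.1% of all genes were called higher and 32.4% lower. In SUDHL2 2 were higher and 4 lower, where 33.3% of all genes were called higher and 33% lower. IRF8, a factor of B-cell and myeloid development, was at least 72.8-fold lower in HLY (adjusted p = 1.85e-10) and rose by 5.93 on the log2 scale in SUDHL2, where 1 of 3 normoxia arrays detected it. IRF1, an activator induced by interferon gamma, rose by 2.21 in HLY, whereas in SUDHL2 it fell by 1.58, and IRF4, a factor of plasma cell differentiation, rose by 1.64 and fell by 1.36. IRF5, which acts downstream of Toll-like receptors, was at least 1.66-fold lower in HLY and at least 1.57-fold higher in SUDHL2. Of 12 nucleic acid sensors and adaptors tested of 18, 7 were higher and 3 lower in HLY (33.1% and 32.4% of all genes), and 3 were higher and 8 lower in SUDHL2 (33.3% and 33% of all genes). AIM2, a sensor of cytoplasmic DNA, rose by 4.92 in HLY, whereas in SUDHL2 it fell by 4.59, with 1 of 3 arrays detecting it in each of SUDHL2 hypoxia and HLY normoxia. STING1, the adaptor downstream of cytoplasmic DNA sensing, was at least 10.2-fold higher under the HLY label and at least 11.8-fold lower under the other. MYD88, the Toll-like receptor adaptor, fell by 1.83 in HLY, whereas in SUDHL2 it rose by 1.90, and IKBKE, a kinase that activates IRF3 and IRF7, was higher in HLY by at least 3.08-fold and fell by 1.72 in SUDHL2, where 1 of 3 hypoxia arrays detected it. Each difference named in this paragraph was called, but the calls of IRF8, IRF5, AIM2, STING1 and IKBKE are no support. Each of these was detected on at most 1 of 3 arrays in 1 of the groups compared. They could pass the detection filter through their brighter groups alone.

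Of 64 further interferon-stimulated genes listed, 60 had a probe and 41 were tested. In hypoxia 14 were higher and 18 lower under the HLY label, where 65.5% of all genes were called, 33.1% higher and 32.4% lower. Under the SUDHL2 label 18 were higher and 15 lower, where 66.2% of all genes were called, 33.3% higher and 33% lower. Their median log2 difference was -0.05 in HLY and -0.13 in SUDHL2, against -0.01 and 0.02 over all genes tested, so that the list as a whole leaned neither way by more than 0.13. IFITM2, a paralog of IFITM1, was at least 13.7-fold lower in HLY (adjusted p = 1.05e-10) and rose by 4.14 in SUDHL2, where 1 of 3 normoxia arrays detected it. MX2, a paralog of MX1 that blocks nuclear entry of viruses, was at least 5.12-fold lower in HLY and at least 5.05-fold higher in SUDHL2. LY6E, a surface protein induced by interferon, rose by 4.02 in HLY, whereas in SUDHL2 it fell by 4.25. EPSTI1, another interferon-induced gene, rose by 3.62 in HLY, where 1 of 3 normoxia arrays detected it. OAS2, a relative of OAS1, rose by 3.30 in HLY, whereas in SUDHL2 it fell by 3.69. MX1 and MX2 took the same direction in each line, OAS2 that of the brightest IFI6 probe, and both directions were present among these genes in each labelled line, as among all genes.

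On average over both lines, 1 of the 41 was higher and 3 were lower, where 9.54% of all genes were called, 3.9% higher and 5.64% lower. That count is near the background, and the 4 genes are named only to account for it. GBP1, a GTPase that attacks intracellular pathogens, rose by 0.38 (adjusted p = 0.0493), with no HLY normoxia array and 1 of 3 SUDHL2 hypoxia arrays detecting it. SAMD9L, which restricts viral translation, fell by 0.78 (adjusted p = 0.00512) but was below background in SUDHL2 hypoxia, so that its size is fitted and not measured. TRIM5, a capsid-binding restriction factor, fell by 0.61 (0.00713) and PNPT1, a mitochondrial RNA-degrading enzyme, fell by 0.49 (0.00562). Among the sensors, IFI16, a DNA sensor, fell by 0.37 (adjusted p = 0.0189) and was the only one called. Of 8 negative regulators tested of 11, 2 were higher and 4 lower in HLY, 3 were higher and 3 lower in SUDHL2, and 1 was lower on average, where 65.5%, 66.2% and 9.54% of all genes were called. These counts are near the background too. The 1 called on average was PIAS1, an inhibitor of STAT signalling, which fell by 0.49 (adjusted p = 0.00876). PTPN6, a phosphatase that dampens JAK signalling, fell by 2.65 in HLY, whereas in SUDHL2 it rose by 2.37, the direction of ISG15 and MX1.

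**Figure D5:**
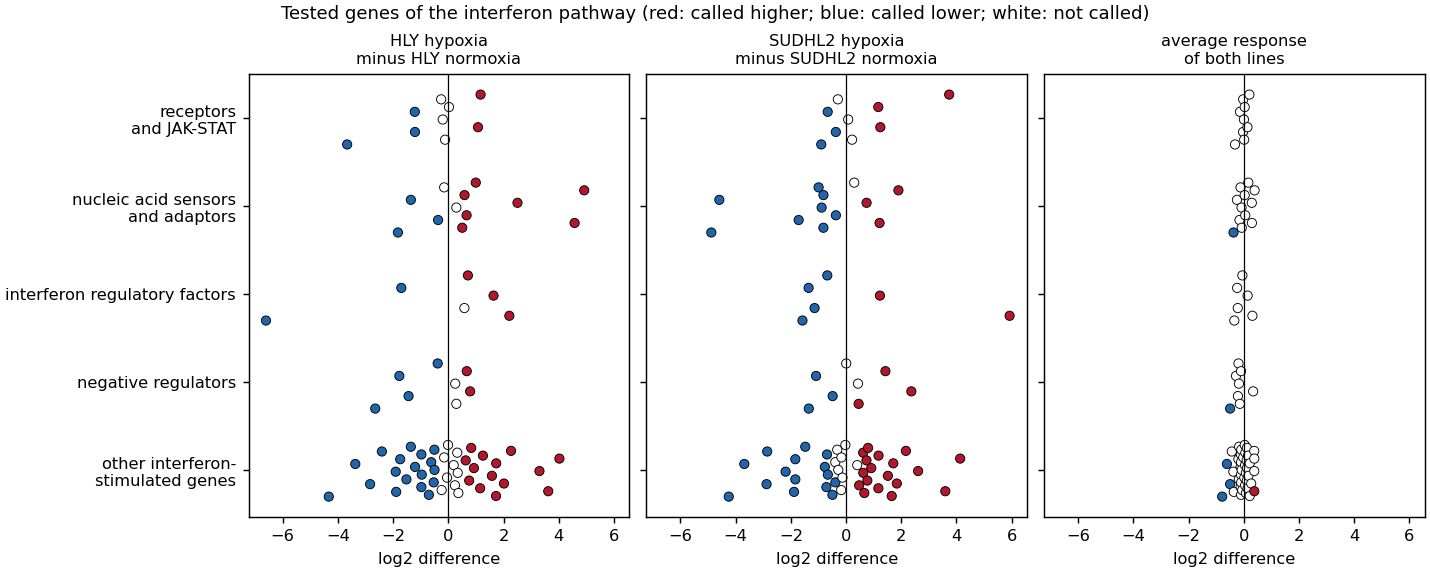
log2 difference (horizontal axis) of each tested gene in 5 lists of the interferon pathway (vertical axis, points spread for legibility), red where called higher, blue where called lower and white where not called. The labelled responses reach from -6.61 (IRF8) to 4.92 (AIM2) in HLY and from -4.88 (STING1) to 5.93 (IRF8) in SUDHL2, some fitted through groups below background, while no average response goes below -0.78 (SAMD9L).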

How the data were processed

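The series holds 12 Illumina HumanHT-12 v4 arrays, 3 for each of 4 groups, which were taken from the labels (HLY and SUDHL2 cells, 1% and 21% oxygen). The authors deposited the intensity of each of 47230 probes from GenomeStudio 2011.1 without normalization. They also deposited a detection p-value against the negative controls of each array. A deposited score, namely the log10 intensities of an array turned into z-scores, served as an alternative (largest deviation on recomputing 0.0109). Arrays had median intensities between 111 and 149 and between 12322 and 14925 probes with a detection p under 0.01.

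Intensities were corrected with normexp from the detection p-values, quantile-normalized (offset 16) and log2-transformed (neqc, limma 3.58.1, R 4.3.3). The 16288 probes detected on at least 3 arrays were kept, of which 12684 carried a symbol, and the brightest stood for each of 9621 genes (2492 had several). The platform table listed 30121 probes, 30113 with 1 symbol and 8 with several, and 17109 were unnamed. A gene could pass this filter through its bright groups alone, as MX1 did, and the 4 of the 10 genes that did not pass are given as undetected.

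All 4 group means were fitted in 1 limma model (8 residual and 5.71 prior degrees of freedom), with Benjamini-Hochberg adjustment over all genes and a threshold of 0.05. All 6 pairs of groups, the difference between the labelled responses and their average were compared. An exact permutation test of 3 against 3 arrays cannot go below 0.1 and was not used. The fit was tested on simulated data. Promoter windows were from RefSeq (GRCh38.p14). Python 3.11.15, pandas 2.3.3 and matplotlib 3.10.9 made the tables and figures.

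The 10 genes, the pathway lists and the cell markers were chosen with earlier results of these data known. Named beside the 10 genes were all tested receptor and JAK-STAT genes, up to 4 called genes of each other list with the largest differences, and the 2 nearest genes of the 3 with the widest range. OAS2 in HLY, EPCAM, PECAM1, NDRG1, P4HA1 and ADM were outside this rule and were added after their values were seen. Alternatives omitted background correction, centred arrays on their median, took the deposited scores, changed the detection filter, averaged probes or fitted each, blocked on the replicate number, changed the moderation, fitted 2 groups alone, used the methods' t-test, and left out each array in turn. The fit of every kept probe was chosen after seeing the data. Protein and RT-PCR measurements were not analysed here.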

Additional observations from a re-analysis of the deposited data

Results flagged for a closer look

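The response to hypoxia differed between the line labels, by the test of that difference in limma, for 5 of the 6 measured genes, where 73.8% of all genes differed in the same test. The SUDHL2 response minus the HLY response was 4.05 for ISG15, 4.12 for MX1, 1.27 for IRF7 and 0.74 for IFITM1 on the log2 scale, and -4.18 for IFI6. The MX1 value passes through groups below background, and the IFI6 value is that of its brightest probe. In ISG15, MX1 and IFI6 each group stood nearest to the other line's opposite oxygen level, as the arrays as a whole did, and the part of this in the difference was not tested.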

How the results depend on the processing

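ISG15, MX1 and the brightest IFI6 probe kept their direction and their call in hypoxia against normoxia under both labels, and in the difference between the labels, under every alternative that gave a value, and the adjusted p in the 2 labelled lines stayed at or below 0.00702. For MX1 the kept calls describe the fit and are no support, since it passed the detection filter through its 2 bright groups alone. For IFI6 the direction and the calls held for that probe and for the mean of both, which contains that probe and is no separate support. The other IFI6 probe, ILMN_2347798, lost all 3 calls and turned the sign in HLY (-0.28, adjusted p = 0.274) and in the difference between the labels (0.28, adjusted p = 0.425). The calls of OAS1 in HLY (lost under 10 of 22 alternatives, highest adjusted p = 0.771), IRF7 in SUDHL2 (5 of 22, 0.17) and the IFITM1 difference between the labels (12 of 21, 0.47) did not hold, and the IRF7 difference between the labels was lost with median centring (0.131). The cause was not tested.

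Asking for detection on all 12 arrays, which drops MX1, OAS1 and IRF7 by construction, left 2 of the 6 genes called (4 otherwise) in hypoxia against normoxia under each label and between the lines at each oxygen level, 3 (5 otherwise) in the difference between the labels, and 1 (0 otherwise) on average. Median centring left 3 in the difference between the labels. For SUDHL2 hypoxia against HLY normoxia the count was 1, and it was 0 without background correction, with median centring, with deposited z-scores, without a detection filter, with the mean of the kept probes, with 2 groups fitted alone, with every kept probe fitted and with the methods' t-test, adjusted or not. Leaving out single arrays gave 0 to 1 there and 0 to 1 on average.

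Over all genes, the average response called 918 genes (65 with median centring, and 527 to 1310 when single arrays were left out). HLY hypoxia against SUDHL2 normoxia called 231 (29 with median centring, 7 with the methods' t-test after adjustment and 1201 before, and 110 to 295 without single arrays). SUDHL2 hypoxia against HLY normoxia called 1526 (10 with median centring, 300 with the methods' t-test after adjustment and 2495 before, and 833 to 2133 without single arrays).

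Among called differences, a sign turned on other probes of the gene, for IFI6 (also 0.13 and -0.15 between HLY and SUDHL2 in normoxia and hypoxia, and -0.13 in SUDHL2 hypoxia against HLY normoxia, none called) and for OAS1 in HLY, where ILMN_1658247 gave 0.75 (adjusted p = 0.0109) against -0.71. The signs that turned with other settings were in differences that did not pass the test. With median centring these were IFITM1 in HLY (0.039), ISG15 on average (0.088), and, in HLY hypoxia against SUDHL2 normoxia, ISG15 (0.12) and MX1 (-0.021). The mean of its probes turned the OAS1 difference between the labels to -0.18. Without single arrays, OAS1 ran from -0.39 to 0.17 in SUDHL2 and from -0.23 to 0.33 between HLY and SUDHL2 in normoxia. On average, IFITM1 ran from -0.050 to 0.16, ISG15 from -0.12 to 0.032 and IRF7 from -0.029 to 0.23. In HLY hypoxia against SUDHL2 normoxia, IFITM1 ran from -0.11 to 0.25, ISG15 from -0.28 to 0.015, MX1 from -0.053 to 0.13 and IRF7 from -0.11 to 0.26. In SUDHL2 hypoxia against HLY normoxia, ISG15 ran from -0.067 to 0.14, IRF7 from -0.17 to 0.35 and IFITM1 from -0.12 to 0.25.

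Same-numbered arrays of the 2 oxygen levels deviated with correlations of -0.018, 0.043 and -0.004 in HLY and 0.231, 0.024 and 0.103 in SUDHL2. Arrays of different numbers were not compared, so these values do not settle whether replicate numbers pair the samples. With the replicate number as a block, IFI6 in SUDHL2 hypoxia against HLY normoxia had an adjusted p of 0.0597 and the count there was 0, and no other call of the 6 genes in these comparisons was lost.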
